A study of Mus musculus with 18 samples.

Results

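The genes described here are the 9 core genes of the cellular oxygen-sensing system, chosen by name: Hif1a, Epas1 and Hif3a (the alpha subunits of the hypoxia-inducible factors), Arnt (the beta subunit), Egln1, Egln2 and Egln3 (the prolyl hydroxylases), Hif1an (the asparaginyl hydroxylase) and Vhl (the ubiquitin ligase subunit). All 9 were found among the 57010 genes counted, and all 9 were among the 17531 genes with enough counts to be tested. RNA was sequenced from isolated mouse brain endothelial cells in 18 libraries, in a design of oxygen by genotype that asks how Pdcd10 loss and low oxygen act on these cells. Pdcd10 encodes CCM3, whose loss gives rise to cerebral cavernous malformations.

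The group called KO was Slco1c1-iCreERT2;Pdcd10fl/fl;Aldh1l1-EGFP/Rpl10a, in which a tamoxifen-activated Cre driven by Slco1c1 deletes Pdcd10 in brain endothelium. The group called flox was Pdcd10fl/fl;Aldh1l1-EGFP/Rpl10a, so floxed alleles and an astrocyte reporter were shared by all animals. On postnatal day 1 the mice received 50 µg of 4-hydroxytamoxifen. Uninjected animals with Cre are also named as controls in the design text, without a statement of which libraries, if any, they gave. At postnatal day 57 cells were isolated, either after 7 days at 12% oxygen (hypoxia) or from mice at 21% oxygen (normoxia). Each oxygen level had 4 libraries of flox and 5 of KO cells. The labels do not say that each library came from a separate animal, so p-values measure the spread between these libraries, which may be technical in part.

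Cells sense oxygen through the breakdown of HIF alpha subunits. In oxygen, the prolyl hydroxylases modify the alpha subunits, the VHL protein binds the modified form and directs it to the proteasome, and the asparaginyl hydroxylase FIH blocks binding of coactivators. In low oxygen these enzymes slow down, an alpha subunit accumulates, pairs with ARNT and binds DNA at short elements with the core ACGTG or GCGTG. HIF-2α, the product of Epas1, is known as the abundant alpha subunit of endothelium, and Egln1 and Egln3 are themselves known HIF target genes. All values here are of mRNA, whereas the oxygen-dependent step acts on protein.

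The stretches upstream of the start sites of Hif1a, Egln1 and Egln3 are shown because these were the 3 genes of the system whose mRNA rose in KO at both oxygen levels. They are RefSeq sequences of GRCm38.p6, read 5′ to 3′ on the gene's strand: chr12:73907617-73907866 (plus strand) for Hif1a, chr8:124949325-124949504 (minus strand) for Egln1 and chr12:54203875-54204124 (minus strand) for Egln3. Capitals mark ACGTG or GCGTG on either strand (CACGT or CACGC when read on the strand shown), with overlapping matches joined.
Hif1a: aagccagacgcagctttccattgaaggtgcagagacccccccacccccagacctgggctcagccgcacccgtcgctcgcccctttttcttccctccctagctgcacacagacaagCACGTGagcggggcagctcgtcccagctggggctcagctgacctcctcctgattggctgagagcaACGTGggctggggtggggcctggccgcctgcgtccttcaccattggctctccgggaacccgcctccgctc
Egln1: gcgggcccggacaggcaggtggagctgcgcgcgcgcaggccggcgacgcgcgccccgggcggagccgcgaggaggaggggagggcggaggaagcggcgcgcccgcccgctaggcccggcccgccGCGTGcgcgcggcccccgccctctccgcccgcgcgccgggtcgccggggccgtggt
Egln3: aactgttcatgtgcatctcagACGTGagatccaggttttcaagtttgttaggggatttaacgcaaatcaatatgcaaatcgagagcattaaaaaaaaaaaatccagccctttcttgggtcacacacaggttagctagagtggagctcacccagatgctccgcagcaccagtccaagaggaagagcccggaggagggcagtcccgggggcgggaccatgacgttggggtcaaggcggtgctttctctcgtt
The Hif1a stretch (250 bases) holds 3 matches, of which a pair overlaps in CACGTG, and the Egln3 stretch (250 bases) holds 1. The Egln1 stretch is shown for 180 bases, with 1 match, up to an annotated transcript start; its full window holds 2. Stretches were at hand for 8 of the 9 genes, with 9 windows in all and none for Epas1. A match was found in 7 of the 9 windows, belonging to 6 genes, and none was found in those of Hif1an and Vhl. Over all mouse windows of 250 bases, 12679 of 32851 (38.6%) hold at least 1 match, so the letters are common, and a match is a description of the sequence and not a binding site.

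Totals ran from 17.9 to 31.2 M counts per library. Pdcd10 was lower in KO, as the labels have it, with 39.3 ± 6.14 CPM (counts relative to the scaled library total; SD, n = 4) in normoxia flox against 18.6 ± 1.90 (SD, n = 5) in normoxia KO, and 48.004 ± 9.79 (SD, n = 4) in hypoxia flox against 21.3 ± 2.77 (SD, n = 5) in hypoxia KO. The log2 fold change of Pdcd10 was -1.08 ± 0.14 (SE) in normoxia and -1.17 ± 0.14 in hypoxia, with edgeR adjusted p of 5.02e-05 and 2.87e-05. All 8 endothelial markers were detected in every library, with a summed level of 14693 to 21932 CPM. Libraries normoxia flox 4 and normoxia KO 4 stood apart: the neuronal gene Syt1 reached 838 and 471 CPM there and at most 8.68 CPM in any other library, and the 6 neuron markers summed to 1690 and 925 CPM. The ratio of Y-linked genes to Xist, a sex signal, was that of Y-positive cells in all 4 hypoxia flox libraries (log2 4.67 to 8.27) and of Xist-positive cells in 4 of the 5 hypoxia KO libraries (-13.04 to -11.48), the other being hypoxia KO 4 (7.44). In normoxia it was 7.25, -13.27, -4.26 and -3.11 in flox 1 to 4, and 7.17, 7.12, -6.15, -13.08 and -13.01 in KO 1, 2, 4, 5 and 6, so the sex signal differed with genotype in hypoxia and with oxygen in flox. Normoxia flox 3, normoxia flox 4 and normoxia KO 4 lay between the Y-positive and the Xist-positive values. Whether these libraries hold cells of both sexes was not tested. Results that rest on the libraries with neuron markers are given with and without them below.

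Per transcript length, Epas1 was by far the most abundant gene of the system in each of the 4 groups. In normoxia flox cells, its level was 852 ± 179 RPKM (reads relative to gene length and library total; SD, n = 4). Next came Egln1 at 26.8 ± 3.02 and Egln2 at 25.8 ± 4.05 RPKM, whose ranges overlapped, then Hif1a at 20.6 ± 0.783 and Arnt at 12.4 ± 2.35 RPKM, each apart from its neighbours in every library. Vhl at 7.68 ± 0.65 and Hif1an at 6.75 ± 0.823 RPKM overlapped, as did Hif3a at 0.725 ± 0.189 and Egln3 at 0.625 ± 0.793 RPKM at the bottom of the order. In normoxia KO cells, Hif1a stood next below Epas1, at 41.5 ± 7.22 RPKM (SD, n = 5), above Egln2 in 4 of 5 libraries, and Egln3 at 11.3 ± 1.27 RPKM reached the range of Arnt at 11.7 ± 1.36 RPKM. In hypoxia flox cells the ranges of Egln1 (28.2 ± 2.94 RPKM, SD, n = 4), Hif1a (26.9 ± 3.79) and Egln2 (24.1 ± 3.36) ran into each other. In hypoxia KO cells, Hif1a at 49.4 ± 3.74 RPKM (SD, n = 5) was above Egln1 at 30.9 ± 0.973 RPKM in all 5 libraries, and Egln3 and Arnt again overlapped, both with a mean of 12.4 RPKM. Over all 18 libraries, Vhl and Hif1an lay between 5.5 and 9.6 RPKM, and Hif3a at or below 1.5 RPKM.

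**Figure D1:**
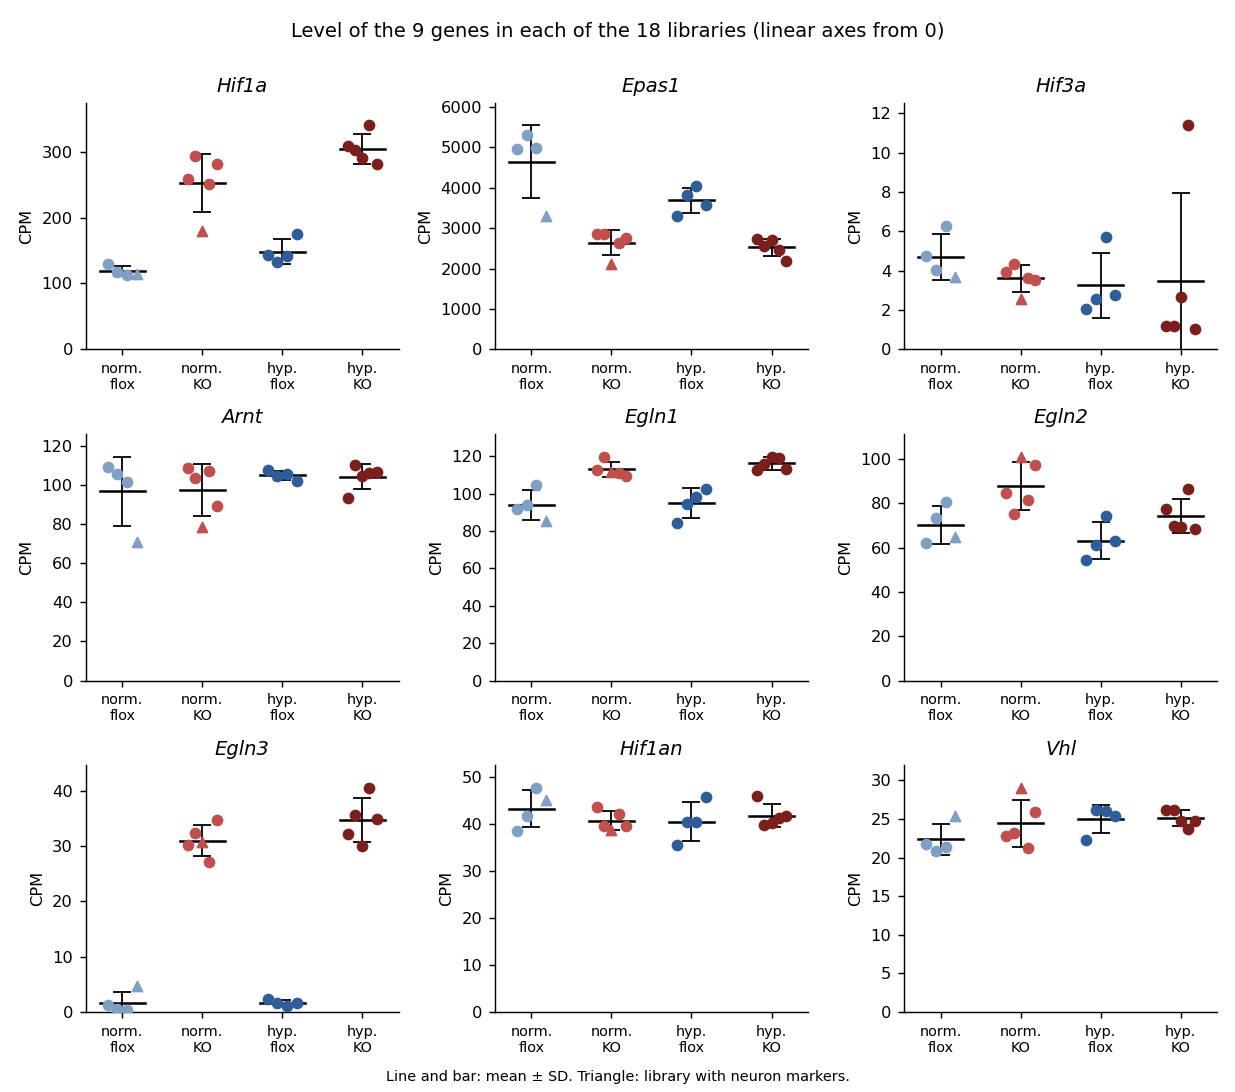
Level of each of the 9 genes in the 18 libraries, in CPM on linear axes from 0, by group (norm., normoxia; hyp., hypoxia). Points are libraries, the line and bar are the mean ± SD of 4 or 5 libraries (the lower bar of Hif3a in hypoxia KO runs below 0 and is not drawn there), and triangles are the libraries with neuron markers. Hif1a, Egln1 and Egln3 are higher and Epas1 is lower in every KO library than in every flox library at the same oxygen level.

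Loss of Pdcd10 went with a shift among the alpha subunits, Hif1a up and Epas1 down, and with a rise of the prolyl hydroxylases Egln3 and Egln1, at both oxygen levels. In normoxia, 4 of the 9 genes passed the edgeR quasi-likelihood test (Benjamini-Hochberg adjusted p under 0.05 over all 17531 genes), 3 higher and 1 lower in KO, while 16.6% of all genes tested passed (9.54% higher and 7.03% lower). In hypoxia the same 4 genes passed in the same directions, against 22.3% of all genes (11.4% higher and 11% lower). The median log2 fold change of the 9 genes was 0.13 in normoxia and 0.12 in hypoxia, beside -0.02 and -0.00 for all genes. In both comparisons the libraries of the groups did not overlap in CPM for the 4 genes that passed, and overlapped for the other 5; over all genes 14.7% did not overlap in normoxia and 22.3% in hypoxia. The cells are a bulk preparation, so fewer cells of a kind and less RNA per cell cannot be told apart.

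Hif1a, which encodes the alpha subunit HIF-1α, was about doubled in KO. In normoxia its level was 129.9, 117, 114 and 114 CPM in flox 1 to 4, and 259, 293, 179.5, 250.2 and 282 CPM in KO 1, 2, 4, 5 and 6. In hypoxia its level was 144, 133, 141 and 176 CPM in flox 2 to 5, and 308, 302, 289.8, 340.0 and 281 CPM in KO 1 to 5. In CPM every KO library was above every flox library, also across oxygen levels. The lowest KO library was normoxia KO 4, which carried neuron markers. In RPKM normoxia KO 4 (30) lay below hypoxia flox 5 (32.5). The fold change was 2.13 in normoxia (log2 1.09 ± 0.12 SE, 95% interval 0.83 to 1.35, edgeR adjusted p = 1.20e-05) and 2.05 in hypoxia (log2 1.04 ± 0.12, interval 0.78 to 1.29, adjusted p = 2.52e-05). In the mouse annotation, exons of Hif1a overlap those of the opposite-strand gene model Gm15283, which stayed between 0.897 and 2.51 CPM. They also overlap those of the same-strand gene model Gm49321, which was not among the genes tested.

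Epas1, the alpha subunit HIF-2α, moved the other way. In normoxia it was at 4952, 5309.8, 4989 and 3303 CPM in flox 1 to 4, and at 2862, 2842, 2118, 2635 and 2756 CPM in KO 1, 2, 4, 5 and 6. In hypoxia it was at 3306, 3819, 4044 and 3567 CPM in flox 2 to 5, and at 2721, 2546, 2696, 2453 and 2187 CPM in KO 1 to 5. All KO libraries lay below all flox libraries, and the neuron-marker library of each normoxia group was the lowest of its group. Epas1 fell to 0.570 of the flox level in normoxia (log2 fold change -0.81 ± 0.13 SE, 95% interval -1.08 to -0.54, edgeR adjusted p = 0.000307). In hypoxia it fell to 0.684 of the flox level (-0.55 ± 0.13, interval -0.82 to -0.28, adjusted p = 0.00631).

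Epas1 fell and Hif1a rose in KO, so the ratio of Epas1 to Hif1a had to change more than either gene. This ratio was computed from RPKM in each library. Its genotype tests rest on the same libraries as the calls of these genes and add no separate support. The ratio was 40.3, 47.8, 46.3 and 30.5 in normoxia flox 1 to 4, and 11.7, 10.2, 12.5, 11.1 and 10.3 in normoxia KO 1, 2, 4, 5 and 6. In hypoxia it was 24.2, 30.2, 30.3 and 21.4 in flox 2 to 5, and 9.30, 8.89, 9.82, 7.61 and 8.20 in KO 1 to 5. No library of a group overlapped any library of another group in this ratio, and the order of the groups was normoxia flox, hypoxia flox, normoxia KO, hypoxia KO. The mean log2 ratio was lower in KO, with a difference of -1.87 in normoxia (two-sided exact permutation p = 0.00794, adjusted over 8 tests 0.0127) and of -1.59 in hypoxia (the same exact p and adjusted p). Hypoxia went with a lower log2 ratio in flox (-0.63, exact permutation p = 0.0286, adjusted 0.0363) and in KO (-0.35, exact permutation p = 0.00794, adjusted 0.0127). The exact permutation p-values are the smallest the group sizes allow. They were adjusted over 8 tests, whereas those of single genes were adjusted over all genes tested. Before adjustment, the edgeR p between oxygen levels in flox was 0.0204 for Hif1a and 0.0261 for Epas1. In KO it was 0.0283 and 0.582. That the ratio passed in flox therefore does not show an oxygen difference that the single genes lack. In flox the difference ran from -0.77 to -0.53 when 1 library was left out, and its adjusted exact permutation p reached 0.0653. As a share of the summed RPKM of the 3 alpha subunits, Hif1a made up 2.44 ± 0.515% (SD, n = 4) in normoxia flox, 8.25 ± 0.626% (SD, n = 5) in normoxia KO, 3.70 ± 0.617% (SD, n = 4) in hypoxia flox and 10.3 ± 0.932% (SD, n = 5) in hypoxia KO.

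**Figure D2:**
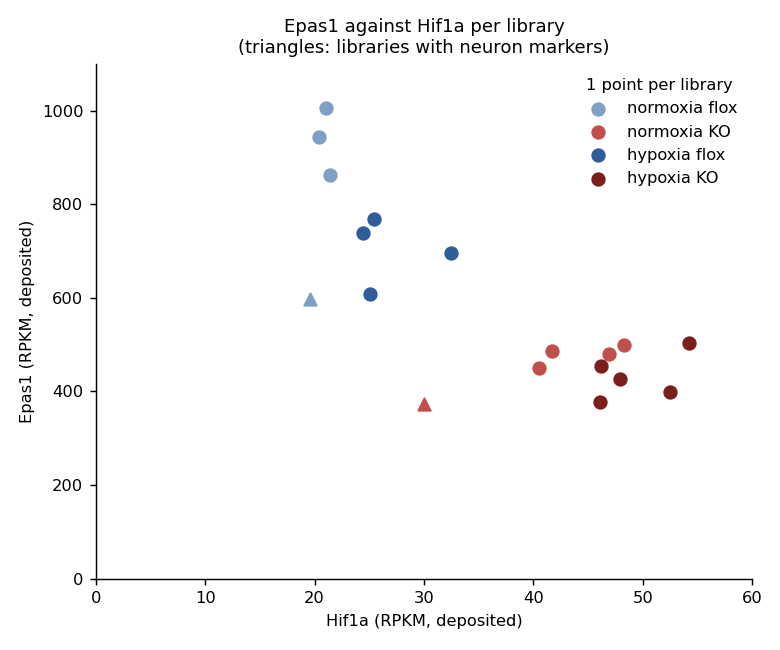
Epas1 (vertical axis) against Hif1a (horizontal axis) in the 18 libraries, both in RPKM on linear axes, with colours for the 4 groups and triangles for the libraries with neuron markers. All KO libraries lie below all flox libraries in Epas1, with ratios of Epas1 to Hif1a from 7.61 to 12.5 against 21.4 to 47.8.

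Hif3a encodes HIF-3α, an alpha subunit with isoforms that can dampen the other alpha subunits. It was scarce, between 1.02 and 11.4 CPM (20 to 235 counts), and its log2 fold change was -0.38 ± 0.56 (SE) in normoxia and 0.12 ± 0.58 in hypoxia (edgeR adjusted p = 0.702 and 0.921). The 95% intervals, -1.56 to 0.81 and -1.11 to 1.35, are wide. In hypoxia the value rested on hypoxia KO 4, without which it was -1.07 ± 0.36 (adjusted p = 0.0518). Arnt, the constitutive beta subunit with which every alpha subunit pairs, had group means of 96.7 ± 17.7 (SD, n = 4), 97.3 ± 13.1 (SD, n = 5), 105 ± 2.34 (SD, n = 4) and 104 ± 6.37 CPM (SD, n = 5) in normoxia flox, normoxia KO, hypoxia flox and hypoxia KO. Its log2 fold change was 0.01 ± 0.12 in normoxia and -0.01 ± 0.12 in hypoxia, with intervals of -0.24 to 0.25 and -0.26 to 0.23 (edgeR adjusted p = 0.971 and 0.964). The lowest Arnt values, 70.7 and 78.3 CPM, were those of normoxia flox 4 and normoxia KO 4.

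Egln3 encodes PHD3, the prolyl hydroxylase best known for its own induction by HIF, and it showed the widest range of the 9 genes. In normoxia it was at 1.20, 0.61, 0.304 and 4.61 CPM in flox 1 to 4, and at 30.2, 32.3, 30.7, 27.0 and 34.7 CPM in KO 1, 2, 4, 5 and 6. In hypoxia it was at 2.30, 1.60, 1.14 and 1.62 CPM in flox 2 to 5, and at 32.2, 35.7, 30.1, 40.5 and 34.8 CPM in KO 1 to 5. The KO libraries lay close together and far above flox, and the highest flox library was normoxia flox 4, the one with neuron markers. The fold change was 18.02 in normoxia (log2 4.17 ± 0.49 SE, 95% interval 3.13 to 5.21, edgeR adjusted p = 2.22e-05) and 20.6 in hypoxia (4.37 ± 0.49, interval 3.32 to 5.42, adjusted p = 2.17e-05). Without normoxia flox 4 and normoxia KO 4, the log2 fold change in normoxia was 5.45 ± 0.31 (adjusted p = 3.08e-08). Normoxia flox counts were low, down to 7 counts for Egln3 in a library.

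Egln1 encodes PHD2, the main prolyl hydroxylase acting on HIF-1α, and rose by the least of the genes that passed. In normoxia it was at 91.9, 93.8, 104 and 85.3 CPM in flox 1 to 4, and at 113, 119.8, 112, 111 and 109 CPM in KO 1, 2, 4, 5 and 6. In hypoxia it was at 84.4, 94.6, 98.4 and 103 CPM in flox 2 to 5, and at 112, 116, 119.8, 119 and 113 CPM in KO 1 to 5. In CPM the KO libraries again lay above all flox libraries, by a narrow margin. In RPKM the ranges of Egln1 overlapped, at 24 to 30.7 in flox and 29.4 to 31.5 in KO in normoxia. In hypoxia they were 24.2 to 31.2 RPKM in flox and 30.1 to 32.4 RPKM in KO. The fold change was 1.20 in normoxia (log2 0.27 ± 0.07 SE, 95% interval 0.13 to 0.41, edgeR adjusted p = 0.0105) and 1.22 in hypoxia (0.29 ± 0.07, interval 0.15 to 0.43, adjusted p = 0.00540). In normoxia the call was lost without both neuron-marker libraries (0.19 ± 0.07, adjusted p = 0.0505), with only the 2 groups compared in the fit (adjusted p = 0.0542) and with no filter on low counts (adjusted p = 0.0555).

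Egln2, which encodes PHD1, did not pass in either comparison. In normoxia it was at 62.2, 73.3, 80.8 and 64.8 CPM in flox 1 to 4, and at 84.6, 75.0, 101, 81.4 and 97.2 CPM in KO 1, 2, 4, 5 and 6, with 1 KO library inside the flox range. In hypoxia it was at 54.3, 61.3, 74.2 and 62.9 CPM in flox 2 to 5, and at 77.6, 69.8, 69.4, 86.6 and 68.4 CPM in KO 1 to 5. The log2 fold change was 0.32 ± 0.11 (SE; 95% interval 0.08 to 0.56, edgeR adjusted p = 0.0624) in normoxia and 0.23 ± 0.11 (interval -0.00 to 0.47, adjusted p = 0.154) in hypoxia. The normoxia call depended on the settings: Egln2 passed with DESeq2 (adjusted p = 0.0492), without normoxia flox 3 (0.0497) or normoxia KO 2 (0.0386), and with the score of immediate early genes as a covariate (0.40, 0.00331; in hypoxia 0.39, 0.00723). Egln2 exons overlap those of the opposite-strand gene Cyp2t4, which was at most at 3.78 CPM.

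Put together per length, the 3 prolyl hydroxylases summed to 53.2 ± 6.50 RPKM (SD, n = 4) in normoxia flox and 72.2 ± 5.66 (SD, n = 5) in normoxia KO, and to 53 ± 5.69 (SD, n = 4) and 68.8 ± 3.88 (SD, n = 5) in hypoxia. Egln3 made up 1.26 ± 1.63% of this sum in normoxia flox, 15.7 ± 1.09% in normoxia KO, 1.31 ± 0.484% in hypoxia flox and 18.1 ± 1.36% in hypoxia KO. The share was higher in KO by 14.4 percentage points in normoxia and by 16.8 in hypoxia (two-sided exact permutation p = 0.00794 for each, adjusted over 8 tests 0.0127). Between oxygen levels it differed by 2.39 points in KO, where the groups overlapped (exact permutation p = 0.0317, adjusted 0.0363), and by 0.0513 points in flox (exact permutation p = 0.971, adjusted 0.971). The KO difference missed the threshold without both neuron-marker libraries (2.15 points, adjusted exact permutation p = 0.0635) and passed in 4 of the 10 fits that leave out 1 library.

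Hif1an and Vhl, which act on the alpha subunits after or beside the prolyl hydroxylases, did not pass in either comparison. Hif1an encodes FIH and ran from 35.5 to 47.8 CPM over all libraries, with group means of 43.3 ± 3.98 (SD, n = 4), 40.8 ± 2.03 (SD, n = 5), 40.6 ± 4.19 (SD, n = 4) and 41.9 ± 2.44 CPM (SD, n = 5) in normoxia flox, normoxia KO, hypoxia flox and hypoxia KO. Its log2 fold change in KO was -0.09 ± 0.08 in normoxia and 0.04 ± 0.08 in hypoxia (edgeR adjusted p = 0.523 and 0.743). Vhl encodes the subunit that recognises hydroxylated alpha subunits and ran from 20.9 to 29.0 CPM, with group means of 22.4 ± 2.03 (SD, n = 4), 24.4 ± 3.09 (SD, n = 5), 25.0 ± 1.81 (SD, n = 4) and 25.1 ± 1.05 CPM (SD, n = 5) in the same order. Its log2 fold change in KO was 0.13 ± 0.09 in normoxia and 0.01 ± 0.09 in hypoxia (adjusted p = 0.400 and 0.967). The 95% intervals in normoxia, -0.25 to 0.08 for Hif1an and -0.07 to 0.32 for Vhl, bound any change to less than that of Hif1a.

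**Figure D3:**
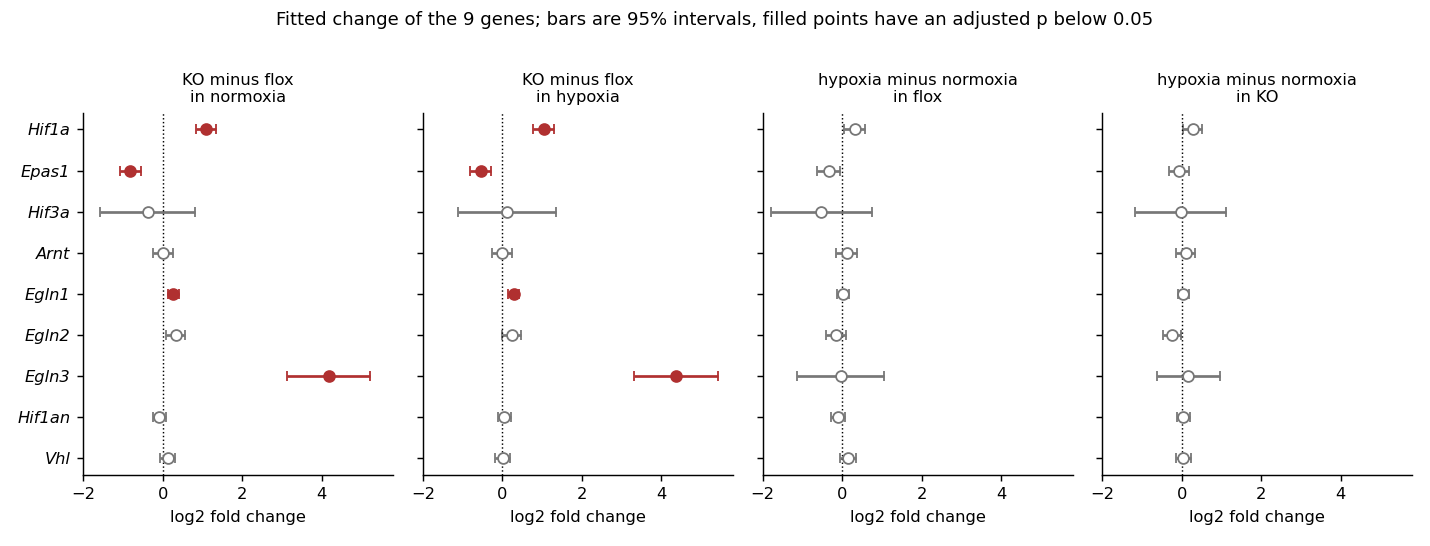
Log2 fold changes of the 9 genes in the 4 comparisons, from the edgeR model of all 18 libraries, with 95% intervals and filled symbols where the adjusted p is below 0.05. Hif1a, Egln1 and Egln3 lie right of 0 and Epas1 left of 0 in both KO comparisons, and no gene is filled in the oxygen comparisons.

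After 7 days at 12% oxygen, none of the 9 genes passed the edgeR test in flox (2.81% of all genes tested did, 2.34% higher and 0.462% lower) or in KO (1.48%, with 0.713% higher and 0.77% lower). At an unadjusted p under 0.05 there were 2 in flox, Hif1a and Epas1, and 2 in KO, Hif1a and Egln2, and DESeq2 also called 0 in each, with no adjusted p for Hif3a and Egln3. The median log2 fold change of the 9 genes was -0.03 in flox and 0.04 in KO, beside -0.03 in each for all genes. Hif1a was the single gene of the 9 whose groups did not overlap in CPM, in flox, where 8.5% of all genes did not overlap; in KO none did, against 3.83% of all genes. For Hif1a the log2 difference between oxygen levels was 0.32 ± 0.13 (SE; 95% interval 0.06 to 0.59, adjusted p = 0.214) in flox and 0.27 ± 0.11 (0.03 to 0.51, adjusted p = 0.293) in KO. For Epas1 it was -0.33 ± 0.14 (-0.62 to -0.04, adjusted p = 0.227) in flox and -0.07 ± 0.12 (-0.32 to 0.19, adjusted p = 0.841) in KO.

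Of the hydroxylases, Egln3 differed between oxygen levels by -0.03 ± 0.52 in flox (95% interval -1.13 to 1.07, edgeR adjusted p = 0.99) and by 0.16 ± 0.37 in KO (-0.63 to 0.95, adjusted p = 0.885). Egln1 differed by 0.02 ± 0.07 in flox (-0.13 to 0.16, edgeR adjusted p = 0.947) and by 0.04 ± 0.06 in KO (-0.09 to 0.17, adjusted p = 0.811). These upper bounds lie below the fitted genotype differences of Egln1 (0.27 and 0.29) but inside their 95% intervals (0.13 to 0.41 and 0.15 to 0.43). Egln2 differed by -0.15 ± 0.12 in flox (adjusted p = 0.577) and by -0.24 ± 0.11 in KO (interval -0.47 to -0.02, adjusted p = 0.319). Arnt, Hif1an, Vhl and Hif3a had adjusted p between 0.424 and 0.988 in both.

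The flox result for Epas1 and Egln3 turned on normoxia flox 4. Of the normoxia flox libraries it had the lowest Epas1 (3303 CPM, against 4952 to 5309.8 in the other 3) and the highest Egln3 (4.61 CPM, against 0.304 to 1.20). Without it and normoxia KO 4, Epas1 fell in hypoxia flox (log2 -0.47 ± 0.08, edgeR adjusted p = 0.00263) and Egln3 rose (1.27 ± 0.32, adjusted p = 0.0383), so 2 of the 9 genes passed. Among all genes, 690 passed in that fit (485 higher, 205 lower), against 492 with all libraries (411 higher, 81 lower). With normoxia flox 4 alone left out, Epas1 was at -0.48 (edgeR adjusted p = 0.0240) and Egln3 at 1.27 (adjusted p = 0.0392). The level of Egln3 in flox stayed low on either count, at most 2.30 CPM in a hypoxia flox library against at least 27.0 CPM in any KO library. What RNA of neurons, astrocytes or other brain cells in normoxia flox 4 contributed to its Epas1 and Egln3 counts was not tested.

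**Figure D4:**
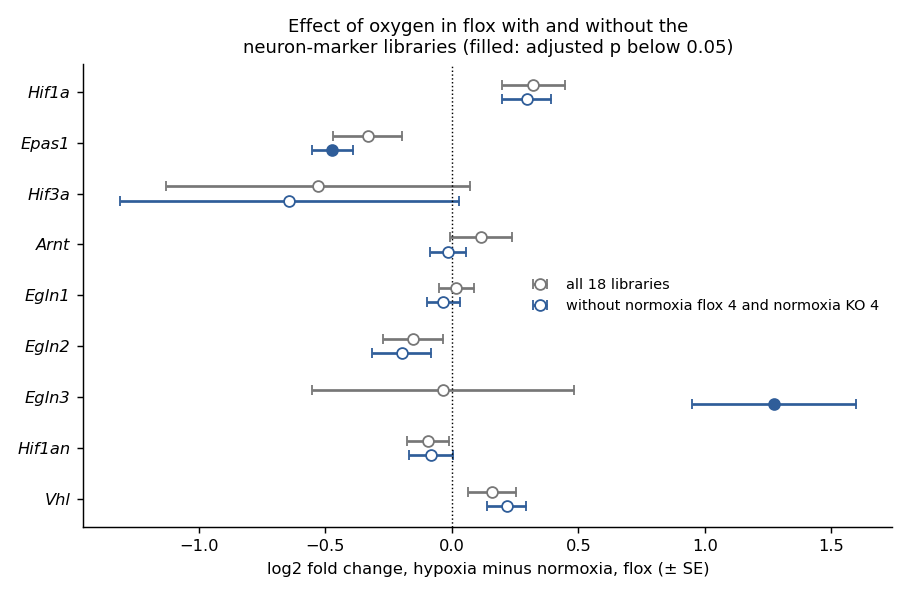
Log2 fold change (± SE) between hypoxia and normoxia in flox cells for the 9 genes, fitted over all 18 libraries (grey) and without normoxia flox 4 and normoxia KO 4 (blue), with filled symbols where the edgeR adjusted p is below 0.05. Epas1 (-0.47) and Egln3 (1.27) are filled without these libraries, and no gene is filled with them.

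The genotype difference was not found to depend on oxygen for any of the 9 genes. The interaction, KO minus flox in hypoxia minus the same in normoxia, was -0.05 ± 0.17 (SE; 95% interval -0.41 to 0.30) for Hif1a, 0.26 ± 0.18 (-0.12 to 0.65) for Epas1, 0.02 ± 0.09 (-0.17 to 0.22) for Egln1 and 0.19 ± 0.64 (-1.16 to 1.55) for Egln3 on the log2 scale. Each of these had an edgeR adjusted p of at least 0.993, and 0 of the 9 genes passed, against 0.439% of all genes, with 0 at an unadjusted p under 0.05 and 0 called by DESeq2. Without both neuron-marker libraries the interaction was -1.10 for Egln3 (adjusted p = 0.419) and 0.35 for Epas1 (adjusted p = 0.302). The intervals are wide enough to hold a change of Epas1 as large as its oxygen difference in flox.

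Some markers of other cells differed between genotypes in the same libraries. Their counts stand beside 9.54% of all genes higher and 7.03% lower in KO in normoxia, and 11.4% higher and 11% lower in hypoxia. Of 10 pericyte markers, 3 were higher in KO in normoxia and 6 in hypoxia, with a summed level of 406 to 1372 CPM in normoxia flox, 781 to 1421 in normoxia KO, 223 to 1125 in hypoxia flox and 1312 to 2271 in hypoxia KO. Of 8 smooth muscle markers, 6 were lower and 1 higher in normoxia, and 5 lower and 1 higher in hypoxia, with summed levels of 496 to 943, 152 to 182, 323 to 618 and 133 to 270 CPM in the same order of groups. Of 6 lymphocyte markers 4 could be tested, and 3 were higher in KO in normoxia and 4 in hypoxia, at summed levels of at most 8.26 CPM in flox and 32.3 CPM in KO. Of 6 perivascular fibroblast markers, 1 was higher in KO in normoxia and 2 in hypoxia, beside 16.6% and 22.3% of all genes called in either direction. Their median log2 fold changes were -0.36 and 0.69, with summed levels of 30.6 to 956, 67.5 to 168, 20.5 to 474 and 73.5 to 184 CPM. No pericyte, smooth muscle or fibroblast marker was at 0 counts in any library, while up to 3 of the lymphocyte markers were. Of the astrocyte, neuron, oligodendrocyte, microglia and red blood cell lists, the astrocyte list alone had a called gene, 1 lower in KO in hypoxia. Though not called, 3 of 6 microglia and macrophage markers did not overlap between KO and flox in hypoxia, beside 22.3% of all genes. In normoxia 0 of these 6 were without overlap. Their median log2 fold change in KO was 1.58 in hypoxia and -0.69 in normoxia. In hypoxia they summed to 3.77 to 25.8 CPM in flox and 9.80 to 43.4 CPM in KO. No member of these marker lists was called between oxygen levels. All 4 red blood cell markers were without overlap between the flox groups (median log2 difference 1.08), beside 8.5% of all genes. So were 1 of 6 fibroblast and 1 of 8 endothelial markers in flox, and 2 of 10 pericyte markers between the KO groups (3.83% of all genes). The red blood cell markers summed to 1172 to 2319 CPM in normoxia flox and 3023 to 4158 CPM in hypoxia flox, against 1003 to 4305 in normoxia KO and 2224 to 6840 in hypoxia KO. Their part in the oxygen differences of Hif1a, Epas1 and their ratio in flox was not tested. Their part in the changes of Hif1a, Epas1, Egln1 and Egln3 was not tested. The 8 endothelial markers summed to a median of 20128 CPM in normoxia flox, 17237 in normoxia KO, 18991 in hypoxia flox and 18238 in hypoxia KO, with 1 higher and 2 lower in KO in normoxia and 1 higher in hypoxia. The 12 immediate early genes, which many stimuli induce quickly, had a higher median summed level in KO: 7473 CPM (2237 to 29416) in normoxia flox, 33374 (3905 to 35351) in normoxia KO, 5590 (2258 to 22432) in hypoxia flox and 29314 (3746 to 33427) in hypoxia KO. Their median log2 fold change in KO was 0.89 in normoxia and 1.33 in hypoxia, and none of the 12 was called in any comparison. With their score as a covariate, the normoxia and hypoxia log2 fold changes were 1.07 and 1.00 for Hif1a, -0.82 and -0.57 for Epas1, 0.28 and 0.32 for Egln1, and 4.14 and 4.33 for Egln3, all passing. With the sex signal as a covariate, those in hypoxia were 1.16 for Hif1a, -0.53 for Epas1, 0.33 for Egln1 and 4.51 for Egln3, all passing. For oxygen in flox, the sex signal as a covariate gave 0.24 for Hif1a and -0.34 for Epas1, and none of the 9 genes passed.

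The genes with which these proteins work were counted as lists. Of 36 HIF target genes, 35 were tested (Egln1 and Egln3 were left out of the list). In KO, 13 were higher and 1 lower in normoxia (median log2 fold change 0.43), beside 9.54% and 7.03% of all genes. In hypoxia, 14 were higher and 2 lower in KO (0.55), beside 11.4% and 11% of all genes. In normoxia they included Pdk1, a kinase that holds back the entry of pyruvate into mitochondrial oxidation (1.12 ± 0.11, edgeR adjusted p = 2.55e-06), the vessel-destabilising ligand Angpt2 (2.41 ± 0.23, 2.55e-06), the collagen cross-linking enzyme Loxl2 (2.43 ± 0.24, 2.89e-06) and the lactate exporter Slc16a3 (3.09 ± 0.35, 1.38e-05). The target that fell in normoxia was the VEGF receptor Flt1 (-0.62), which is also among the 8 endothelial markers, and those that fell in hypoxia were Ddit4 (-0.96) and Ndrg1 (-0.34). Between oxygen levels, 4 of the 35 targets rose in flox, beside 2.34% of all genes: Angpt2 (1.86 ± 0.23, edgeR adjusted p = 0.000108), Loxl2 (1.86 ± 0.24, 0.000138), Ldha (0.47 ± 0.09, 0.00692) and Pdk1 (0.56 ± 0.11, 0.00759). In KO 2 of them rose, beside 0.713% of all genes: Loxl2 (1.19 ± 0.20, 0.0087) and Angpt2 (1.07 ± 0.20, 0.0157). None of the 35 passed the interaction test, beside 0.439% of all genes. The median oxygen difference of the targets was 0.02 in flox and 0.18 in KO.

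Partners of the 9 proteins are given beside the 16.6% of all genes that passed in normoxia and the 22.3% in hypoxia. Of 10 partners of VHL in its ubiquitin ligase, 0 passed in normoxia and in both oxygen comparisons, and Cdc34, a ubiquitin-conjugating enzyme, was higher in KO in hypoxia (0.49 ± 0.13, edgeR adjusted p = 0.0112). Of 23 coactivators and modulators of HIF, 2 were higher and 1 lower in KO in normoxia, and 3 higher and 2 lower in hypoxia. The steroid receptor coactivator Ncoa3 rose at both oxygen levels (0.93 ± 0.10 and 0.80 ± 0.10), as did the pyruvate kinase Pkm (0.80 ± 0.13 and 0.57 ± 0.13), while Ncoa1 fell (-0.50 ± 0.15 and -0.48 ± 0.15). None of the 23 passed between oxygen levels.

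Relatives of the 9 genes were counted as well. Of 15 other factors with PAS domains, which the HIF subunits also have, 12 were tested. The xenobiotic receptor Ahr fell in KO in normoxia and hypoxia (-0.94 ± 0.20 and -1.20 ± 0.20, edgeR adjusted p = 0.00367 and 0.000621). So did the clock factor Bmal2 (-1.02 ± 0.16 and -0.70 ± 0.16), and Per2 rose in KO in hypoxia (1.75 ± 0.40). Of 24 other oxygen-dependent dioxygenases, 2 were higher and 2 lower in KO in normoxia, and 5 higher and 2 lower in hypoxia. Plod1, a collagen lysyl hydroxylase, was the dioxygenase that rose with hypoxia in flox (0.41 ± 0.08, adjusted p = 0.00628) and in KO (0.37 ± 0.07, 0.0157), and it was also higher in KO (0.34 and 0.31). Tet1, a DNA demethylase, fell in KO (-0.74 and -0.99). These lists were read against the shares of all genes given above, and no test of the lists themselves was made.

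The genes most like Egln3 across the 18 libraries were Slco4a1, Cd55, Bst1 and Gpr35. Likeness was the root mean square difference of centred log2 CPM, 0.594 for Slco4a1, 0.612 for Cd55, 0.623 for Bst1 and 0.640 for Gpr35, against a median of 2.37 over 12527 genes; the libraries share depth and genotype, so this is a description. Cd55, a complement inhibitor on the cell surface, had means of 10.9 ± 6.88 (SD, n = 4), 136 ± 18.5 (SD, n = 5), 12.5 ± 3.48 (SD, n = 4) and 147 ± 32.6 CPM (SD, n = 5) in normoxia flox, normoxia KO, hypoxia flox and hypoxia KO. Bst1, a surface enzyme that cleaves NAD, had means of 9.73 ± 6.15, 149 ± 19.7, 12.5 ± 1.48 and 157 ± 54.3 CPM in the same order.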

How the data were processed

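Read counts per Ensembl gene and RPKM with 1 decimal were deposited by the authors for 18 libraries. Per the submitters' processing notes, HISAT2, edgeR and the GRCm39 build were used; versions, the annotation and the strand setting of counting are not given in the sources used here. The deposited counts were tested in R 4.3.3 with edgeR 4.0.16 (filterByExpr, TMM, quasi-likelihood F test, robust, 1 model of the 4 groups). Benjamini-Hochberg adjustment was over 17531 genes. The script was first run on simulated data for KO against flox in normoxia. There it recovered 55 of 100 genes changed by log2 1 and 81 of 100 changed by log2 2. Of its 144 calls, 8 were false. A gene that did not pass may therefore still have changed. CPM use TMM-scaled totals; a standard error is the log2 fold change over the root of its F statistic. The deposited RPKM served for comparing genes with each other, in exact permutation tests. Symbols came from GENCODE M21 (GRCm38), which named 52029 of 57010 identifiers; the rest held 0.723% of counts. A few symbols there are older forms, as Arntl2 for Bmal2.

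The 9 genes, the lists and the rule for naming were chosen with earlier results of these data known. The rule names all 9 genes, Pdcd10, up to 4 passing members per list and comparison with the smallest adjusted p, and the 4 genes most like the member with the widest range; Flt1, Ddit4 and Ndrg1 were named after their values were seen. Labels number the replicates without saying what a number marks. Deviations from the group means correlated at 0.579, 0.294 and 0.847 for normoxia numbers 1, 2 and 4, which were taken as pairs, and at 0.158, 0.0403, -0.183 and -0.339 for hypoxia numbers 2 to 5, which were not. Alternatives were RLE scaling, no filter, DESeq2 1.42.0, the compared groups alone, a replicate block, covariates, and leaving out libraries. The most alike libraries had a Spearman rho of 0.993, and no 2 were identical. The position of overlapping genes was read from GRCm38.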

Additional observations from a re-analysis of the deposited data

Results flagged for a closer look

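The Hif3a level of library hypoxia KO 4, 11.4 CPM, lay far from those of the other 4 hypoxia KO libraries, which ran from 1.02 to 2.69 CPM. It was the single value flagged in 36 groups of libraries examined for the 9 genes. The rule was Dixon's, which compares the gap beside an end value with the range of the group. Its nominal rate is about 1 in 20 groups, and the rate in these data was not measured. In groups of 4 libraries only a gap that fills most of the range is flagged, and normoxia flox 4 was not flagged for Epas1 or Egln3. Hypoxia KO 4 was also the hypoxia KO library with a Y-positive sex signal; whether that bears on Hif3a was not tested. Without hypoxia KO 4, the log2 fold change of Hif3a between KO and flox in hypoxia went from 0.12 to -1.07 (edgeR adjusted p = 0.0518), and its oxygen difference in KO from -0.03 to -1.22 (adjusted p = 0.121), so this library set the size of both and the direction of the former; neither passed with or without it.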

How the results depend on the processing

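Hif1a, Epas1 and Egln3 kept their direction and passed in both genotype comparisons under every alternative that gave an adjusted p (DESeq2 gave none for Egln3), and Egln1 passed in hypoxia under each and in normoxia in all but the 3 named in the report. When 1 library was left out, the number of the 9 genes called ran from 4 to 5 in normoxia and was 4 in hypoxia. It ran from 0 to 2 for oxygen in flox, and was 0 for oxygen in KO and for the interaction. Under the other alternatives the number called ran from 3 to 6 in normoxia and from 3 to 5 in hypoxia. For oxygen in flox it was 2 without both neuron-marker libraries, where 690 of all genes passed. It was also 2 with the immediate early score added to that (1365 of all genes), which was chosen after seeing the data. Egln3 there changed from -0.03 to 1.27 without both libraries, 1.32 with the score added (adjusted p = 0.0283) and 1.27 without normoxia flox 4; with the score and without both libraries, Arnt changed to -0.15 in KO in normoxia (adjusted p = 0.0404). In these cases the cause was not tested. The Egln3 share between oxygen levels in KO was 2.15 without both libraries. Leaving out 1 library, the log2 ratio of Epas1 to Hif1a differed by -2.01 to -1.79 and -1.69 to -1.52 between genotypes in normoxia and hypoxia, and by -0.77 to -0.53 and -0.39 to -0.30 between oxygen levels in flox and KO. The Egln3 share differed by 14.04 to 15.2 and 16.5 to 17.2 points between genotypes, and by -0.31 to 0.85 and 2.10 to 2.85 points between oxygen levels.

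The paired fit, which blocks on normoxia pairs 1, 2 and 4, called 1751 genes in normoxia in place of 2905, with normoxia flox 3 and KO 5 and 6 left out, and kept the 4 calls (Hif1a 0.96, Epas1 -0.80, Egln1 0.32 and Egln3 4.11). The block over all groups called 1791 genes in normoxia, 43 for oxygen in KO and 3 for the interaction. The block over hypoxia numbers called 3938 genes, and no block changed any other call among the 9. Not every normoxia library correlated best with its own number. Normoxia flox 2 correlated at 0.294 with KO 2 and at 0.392 with KO 6, and normoxia flox 3 at 0.707 with KO 6. The pairs are therefore an assumption.

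The backgrounds were less stable than the calls among the 9. With DESeq2, 833 genes passed for oxygen in flox, 617 in KO and 145 for the interaction (20 higher, 125 lower). With the immediate early score the counts were 953 and 546 for oxygen, and with both neuron-marker libraries out as well they were 4815 in normoxia, 1365 and 1063 for oxygen and 152 for the interaction. With only the 2 groups compared, 107 passed for oxygen in KO. Leaving out 1 library gave 2085 to 3645 genes in normoxia, 2664 to 4499 in hypoxia, 332 to 481 for oxygen in flox, 53 to 523 in KO and 28 to 98 for the interaction. In KO the count was 147, 143, 127 and 106 without normoxia KO 1, 4, 5 and 6, and 523, 53 and 102 without hypoxia KO 1, 2 and 5. For the interaction it was 28, 30 and 38 without normoxia flox 1, 2 and 3, 50 and 33 without normoxia KO 5 and 6, and 34, 36, 44 and 44 without hypoxia flox 2 to 5. Counts were lowest for Egln3 (from 7 in a library) and Hif3a (from 20).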
